A study of Macaca mulatta with 10 samples.

Results

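The genes described here encode the proteasome and the proteins that present antigens in the rhesus macaque. They were chosen by annotated symbol: every gene whose symbol starts with PSMA, PSMB, PSMC, PSMD, PSME or MAMU, together with TAP1, TAP2, TAPBP and B2M. The annotation of the array named 48 such genes, of which 45 were measured on probe sets of their own (96 probe sets), out of 13191 genes in all. The other 3 (MAMU-A3, MAMU-KIR and PSMD4) had only probe sets shared with other genes. Of the 45 genes, 28 carry a proteasome symbol and 17 belong to antigen presentation. PSMB9, PSME1 and PSMA4 were not analysed here.

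RNA of all cells in a sample was hybridised to Affymetrix rhesus macaque arrays, 10 in all, in 5 groups of 2. The ES group was ORMES6, 1 embryonic stem cell line of the rhesus macaque, grown undifferentiated on mouse embryonic fibroblast (MEF) feeders with the growth factor bFGF. IVDS2 and IVDS3 were the same line at in vitro differentiation stages 2 and 3, and IVDS2-C and IVDS2-P were the centre (foci) and the periphery of colonies at stage 2. For differentiation the colonies were grown together with hESdF, human fibroblast-like cells that were themselves derived from embryonic stem cells, to obtain hepatic foci. All 5 groups carry the same cell type label, ESC, and ES cells were the stated control. The labels give no day for the stages and do not say how much of the feeder or hESdF layer was left in a sample, or how its transcripts would read on macaque probes. Nor do they say that the 2 repeats of a group came from separate cultures. The p-values thus rest on the spread among these arrays, and that spread may be technical. In such bulk RNA, fewer cells of a type and less RNA per cell cannot be told apart.

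The proteasome is the protease complex that degrades proteins marked with ubiquitin. Its 20S core is a stack of rings of alpha subunits (PSMA) and beta subunits (PSMB), and its 19S cap, made of ATPases (PSMC) and non-ATPases (PSMD), recognises, unfolds and feeds in substrates. Proteolysis is done by PSMB5, PSMB6 and PSMB7. In the immunoproteasome, the form typical of immune cells and of cells exposed to interferon gamma, these are replaced by PSMB8, PSMB9 and PSMB10, in that order. Peptides made in the cytosol are carried into the endoplasmic reticulum by the TAP1 and TAP2 transporter and loaded, with the help of tapasin (TAPBP), onto MHC class I heavy chains bound to B2M. MHC class II molecules present peptides from endosomes and are known mainly from professional antigen-presenting cells. The macaque MHC is named Mamu.

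All values are log2 expression relative to the median of that probe set over the 10 arrays, as deposited. Only differences between arrays can be read from them, so levels of different genes cannot be set against each other. A gene's value is the mean of its probe sets. Differences are log2 fold changes ± standard error (SE) from 1 limma model over all 10 arrays, with 2 arrays per group. A gene is called, and said to have risen or fallen, where its Benjamini-Hochberg adjusted p, taken over all rows of a comparison, is under 0.05. The few arrays limit the precision, and a two-sided exact permutation test of 2 arrays against 2 cannot go below p = 0.333.

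**Figure D1:**
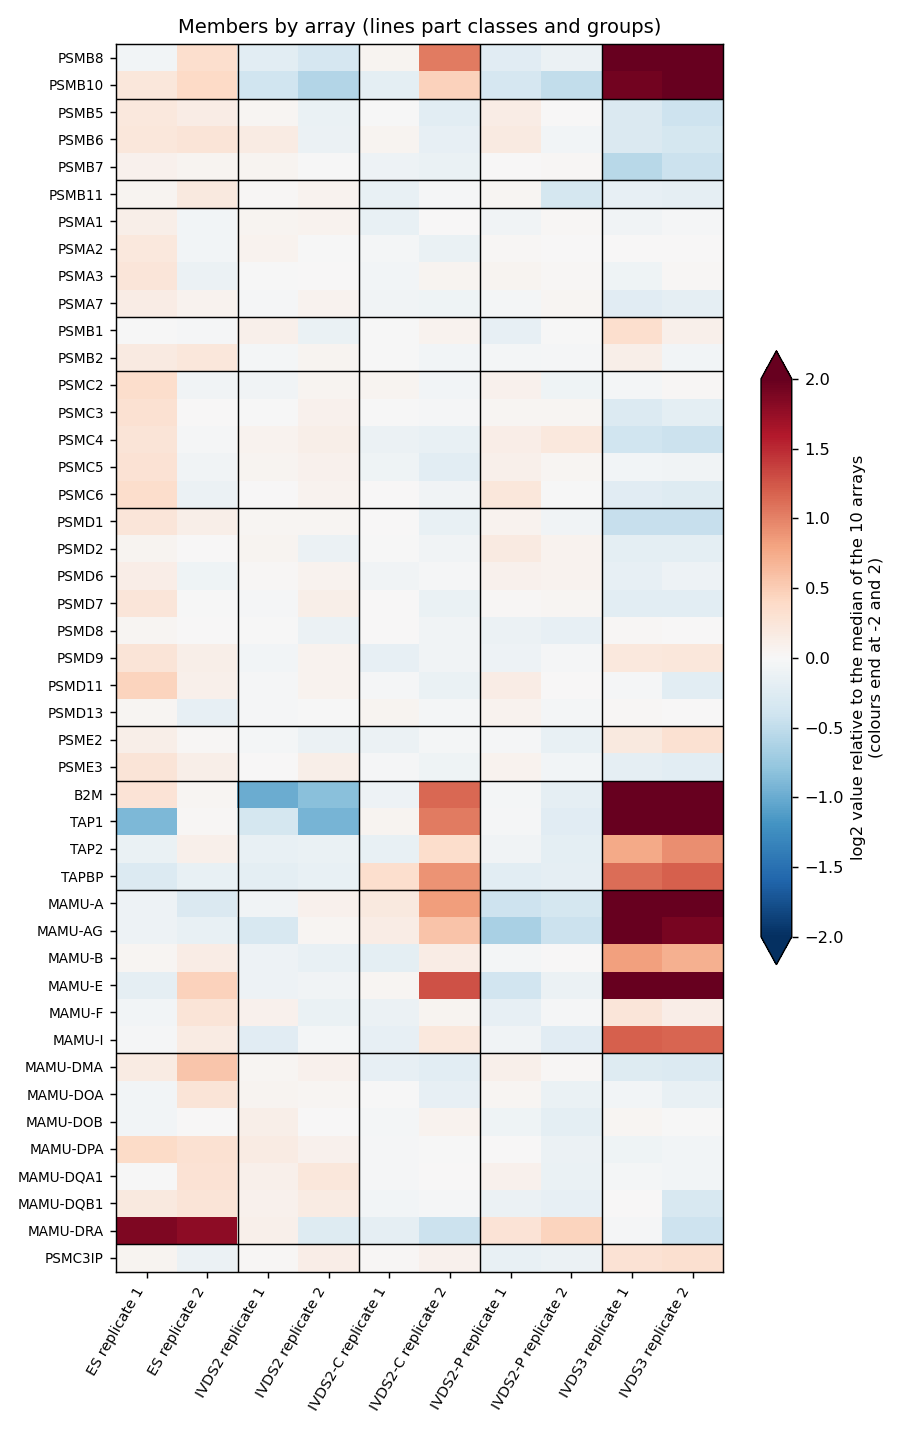
Log2 value of each of the 45 genes (rows, by class) on each of the 10 arrays (columns), relative to the median of the 10 arrays. Colours run from blue (-2 and below) to red (2 and above). The IVDS3 columns are dark red for PSMB8, PSMB10, B2M, TAP1 and several MHC class I genes, IVDS2-C replicate 2 is pale red for the same genes, and MAMU-DRA is dark red in ES cells.

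The 45 genes split by class at stage 3. In IVDS3 against ES cells, 12 rose and 14 fell, where 21.1% of all 13191 genes were called higher and 28.6% lower. The immunoproteasome, peptide loading and class I genes held 11 of the 12 rises. Their 12 measured members had a median log2 fold change of 1.89, against -0.13 over all genes. The 22 standard proteasome genes, meaning 21 subunits of the 20S core and 19S cap and PSMD9, an assembly chaperone of the cap, had 0 rises and 9 falls with a median of -0.20. MHC class II genes had 0 rises and 4 falls among 7. The plot of fold changes by class shows every gene. The 11 rises among the 12 genes were called in each alternative run, while the count of falls among the 22 standard proteasome genes ranged from 4 to 11. It was 4 without IVDS3 replicate 2 (20.9% of all genes fell in that fit), 5 without ES replicate 1 (30.7%), 5 without IVDS3 replicate 1 (20.2%), 5 with each array centred on its median (24.5%) and 11 without ES replicate 2 (25.3%).

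**Figure D2:**
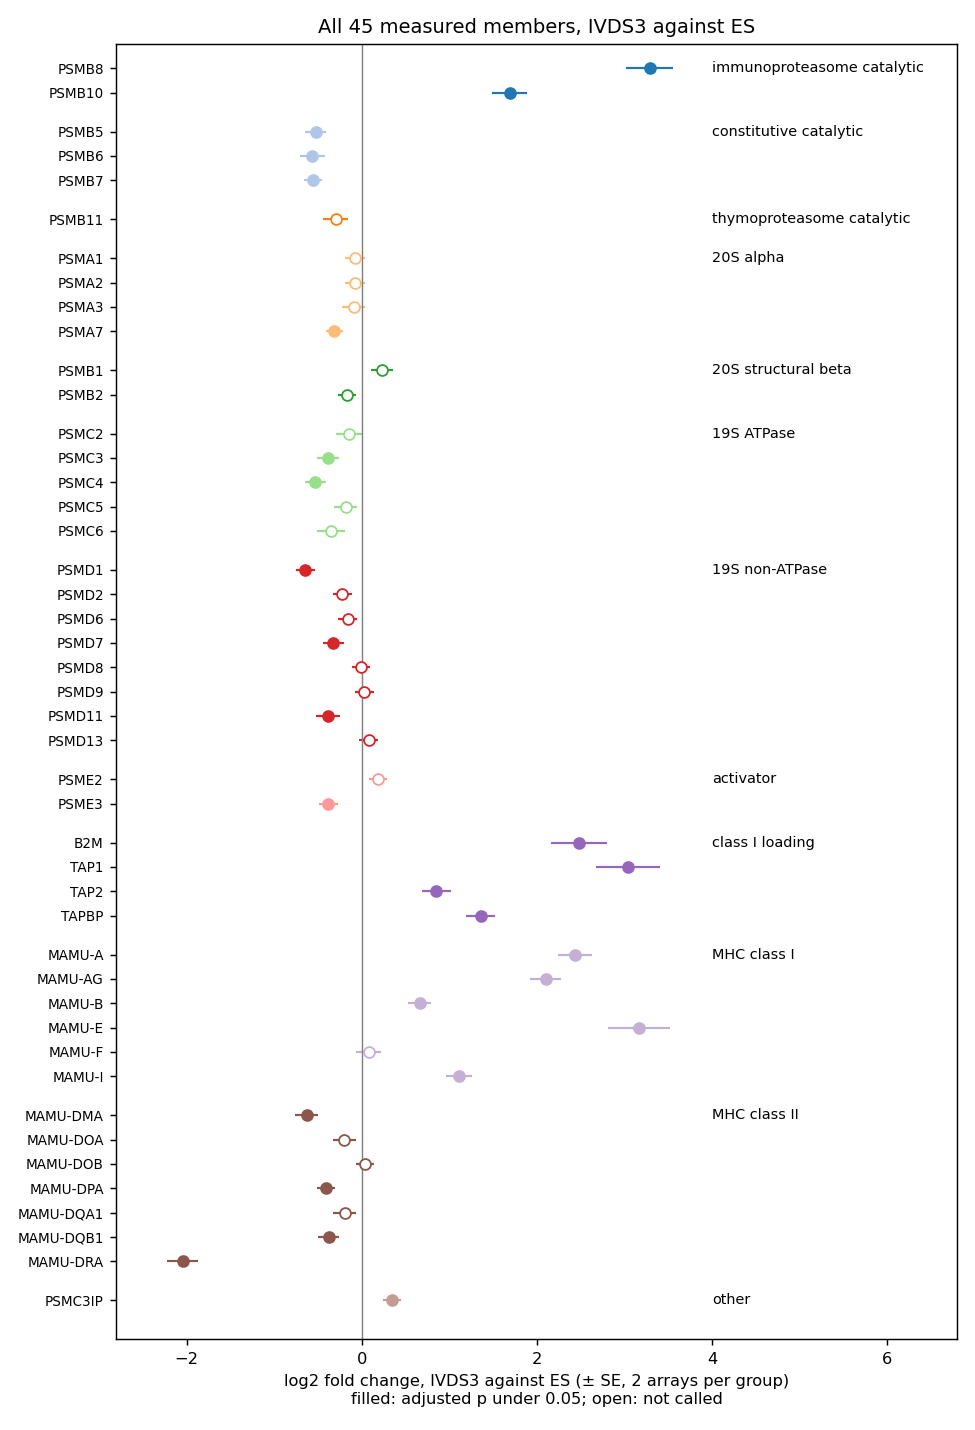
Log2 fold change of the 45 genes in IVDS3 against ES cells (x axis, bars ± SE, 2 arrays per group), by class from top to bottom. Filled points are called at adjusted p under 0.05. PSMB8 (3.29), MAMU-E (3.17) and TAP1 (3.04) lie farthest to the right, MAMU-DRA (-2.04) farthest to the left, and the standard proteasome genes lie between -0.64 and 0.23.

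PSMB8, the chymotrypsin-like subunit of the immunoproteasome, read 3.39 and 3.47 on the IVDS3 arrays, against -0.05 and 0.33 on the ES arrays. The 6 stage 2 arrays read -0.21 and -0.34 (IVDS2), 0.05 and 1.04 (IVDS2-C), and -0.22 and -0.12 (IVDS2-P). Both IVDS3 arrays lay far above the other 8, of which IVDS2-C replicate 2 was the highest. The change was a log2 fold change of 3.29 ± 0.27 over ES cells, or 9.76-fold (adjusted p = 2.09e-05). PSMB10, its trypsin-like counterpart, read 1.93 and 2.07 in IVDS3 and 0.22 and 0.40 in ES cells. At stage 2 it read -0.40 and -0.59 in IVDS2, -0.19 and 0.46 in IVDS2-C, and -0.34 and -0.49 in IVDS2-P, and it was called lower than in ES cells in IVDS2 and IVDS2-P but not in IVDS2-C. PSMB8 was called in none of these groups (-0.42 in IVDS2, 0.40 in IVDS2-C and -0.31 in IVDS2-P), and whether its stage 2 changes differed from those of PSMB10 was not tested. The rise of PSMB10 at stage 3 was 1.69 ± 0.20, or 3.22-fold (adjusted p = 0.000124), and both PSMB10 probe sets were called higher (2.17 and 1.21).

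The 3 constitutive catalytic subunits moved the other way and by much less. PSMB5, which PSMB8 replaces, read -0.29 and -0.41 in IVDS3, against 0.22 and 0.14 in ES cells, a fall of 1.44-fold (-0.52 ± 0.12, adjusted p = 0.00603). The caspase-like subunit PSMB6 read -0.29 and -0.35 in IVDS3 and 0.22 and 0.26 in ES cells (-0.56 ± 0.14, adjusted p = 0.00844). Its call was lost without IVDS3 replicate 2 (adjusted p = 0.0506). PSMB7, replaced by PSMB10, read -0.55 and -0.43 in IVDS3 and 0.08 and 0.05 in ES cells (-0.56 ± 0.10, adjusted p = 0.00161). For all 3 genes the IVDS3 arrays were the lowest of the 10. At stage 2 none of the 3 was called against ES cells in any group: their log2 fold changes ran from -0.29 to -0.18 in IVDS2-C, from -0.18 to -0.05 in IVDS2-P and from -0.22 to -0.04 in IVDS2. PSMB11, the beta subunit of the thymus-specific proteasome, was not called (-0.30 ± 0.14, adjusted p = 0.105).

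**Figure D3:**
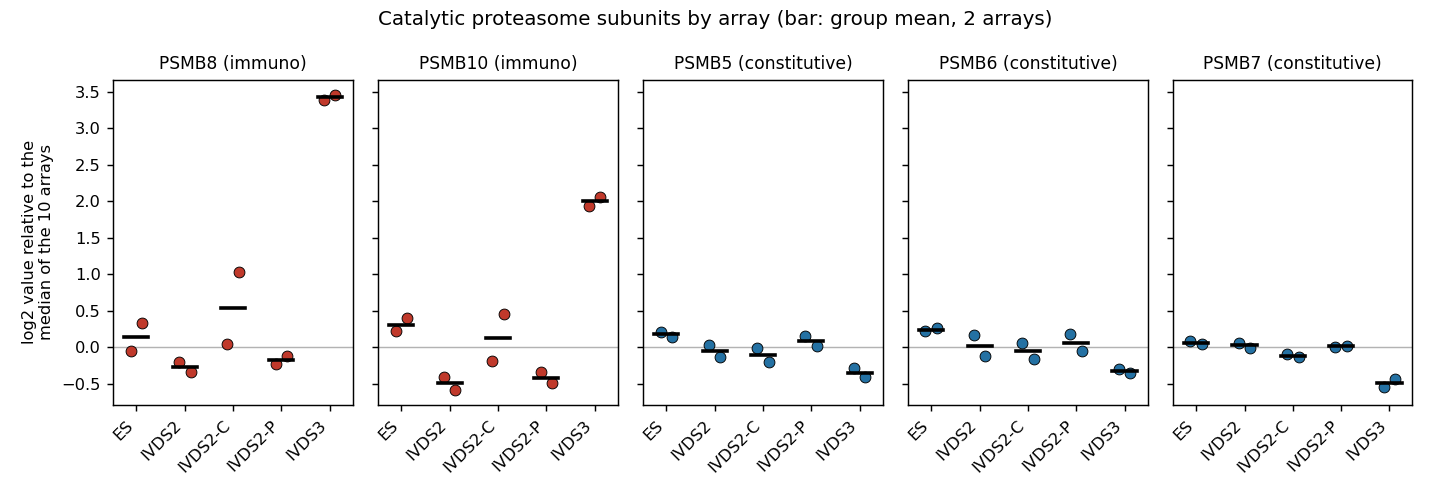
Log2 value relative to the 10-array median (y axis, same scale in each panel) of the 2 measured immunoproteasome subunits (red) and the 3 constitutive catalytic subunits (blue) in the 5 groups (x axis). Points are arrays and bars are means of 2 arrays. PSMB8 and PSMB10 average 3.43 and 2.00 in IVDS3, where PSMB5, PSMB6 and PSMB7 average -0.35, -0.32 and -0.49.

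Whether an immunoproteasome subunit changed differently from the constitutive subunit it replaces was tested on the difference between their values on each array. PSMB8 minus PSMB5 read 3.68 and 3.87 in IVDS3, against -0.26 and 0.19 in ES cells. The shift was 3.81 ± 0.32, a 14.1-fold change of PSMB8 relative to PSMB5 (adjusted p = 2.34e-05 by limma). PSMB10 minus PSMB7 read 2.48 and 2.50 in IVDS3, against 0.14 and 0.35 in ES cells, a shift of 2.24 ± 0.20 or 4.73-fold (adjusted p = 2.93e-05). Both shifts were larger than the spread between replicates. They are changes of a ratio between groups and do not say how much of either subunit was present. The third exchange, PSMB9 for PSMB6, could not be tested here.

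With all 10 arrays, the PSMB8 difference was called at stage 3 and in no stage 2 group, while the PSMB10 difference was also called in IVDS2. PSMB8 minus PSMB5 was not called against ES cells in IVDS2-C (0.69 ± 0.32, adjusted p = 0.138), IVDS2-P (-0.22 ± 0.32, adjusted p = 0.677) or IVDS2 (-0.19 ± 0.32, adjusted p = 0.764). Without IVDS2-C replicate 1, the IVDS2-C value was 1.28 and called (adjusted p = 0.00311). PSMB10 minus PSMB7 fell in IVDS2 (-0.77 ± 0.20, adjusted p = 0.0353), with -0.46 and -0.58 on its arrays against 0.14 and 0.35 in ES cells. That call was lost without either ES replicate, either IVDS2 replicate, either IVDS2-P replicate or either IVDS3 replicate in turn, with values from -0.87 to -0.66. In IVDS2-P the pair was at -0.68 ± 0.20 (adjusted p = 0.0615), called without IVDS2-C replicate 1 or 2. In IVDS2-C it was at -0.00 ± 0.20 (adjusted p = 0.994). Against IVDS2, the IVDS3 shifts were 4.00 ± 0.32 for PSMB8 minus PSMB5 and 3.01 ± 0.20 for PSMB10 minus PSMB7 (adjusted p = 2.81e-05 and 1.03e-05).

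Falls among the standard proteasome genes at stage 3 were small and spread over the complex. Beside the 3 constitutive catalytic subunits, 1 of 4 alpha subunits, 0 of 2 structural beta subunits, 2 of 5 ATPases and 3 of 7 non-ATPases of the 19S cap fell. With PSMD9, which was not called, that is 9 of 22, or 40.9%, where 28.6% of all genes fell, and their median of -0.20 stood near the all-gene median of -0.13. With each array centred on its median the all-gene median was -0.07, and 5 of the 22 fell. The share is given as a description beside the background, and the single genes follow.

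PSMD1, a scaffold protein of the 19S base, read -0.46 and -0.47 in IVDS3 and 0.24 and 0.12 in ES cells. It fell by 0.64 ± 0.11 on the log2 scale, or 1.56-fold (adjusted p = 0.0012), with both of its probe sets called lower. PSMC4, an ATPase of the base, read -0.39 and -0.43 in IVDS3 and 0.26 and -0.02 in ES cells (-0.53 ± 0.12, adjusted p = 0.00507). These 2 genes also fell in IVDS3 against IVDS2 (PSMD1 -0.50 ± 0.11, PSMC4 -0.51 ± 0.12), as did PSMB7 (-0.52 ± 0.10). PSMB7, PSMC4 and PSMD1 were the 3 of the 45 genes that fell in that comparison, where 22.2% of all genes fell and 17.6% rose. The PSMC4 fall between the stages was lost without IVDS2 replicate 2 (adjusted p = 0.0514).

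The other called falls were weaker. PSMC3, also an ATPase, changed by -0.39 ± 0.12 (adjusted p = 0.0259), the non-ATPases PSMD11 and PSMD7 by -0.39 ± 0.14 and -0.33 ± 0.12 (adjusted p = 0.0467 and 0.0473), and the alpha subunit PSMA7 by -0.31 ± 0.10 (adjusted p = 0.0279). Without ES replicate 1 the values were -0.24 for PSMC3, -0.21 for PSMD11, -0.21 for PSMD7 and -0.28 for PSMA7, and none was called (adjusted p = 0.103, 0.214, 0.181 and 0.0663). They were also lost without IVDS3 replicate 1 (adjusted p = 0.121, 0.0664, 0.151 and 0.12) or IVDS3 replicate 2 (adjusted p = 0.071, 0.233, 0.137 and 0.0847). The PSMD11 and PSMD7 calls were lost whichever array was left out of those of IVDS2, IVDS2-C and IVDS2-P too, with adjusted p of 0.0588 to 0.0702.

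The 2 ES arrays differed at these genes mostly in 1 direction. The same difference over all genes is not given here, so it is not known to be particular to them. All 12 measured 19S subunits and PSMD9 read higher on ES replicate 1 than on ES replicate 2, by a median of 0.24, and so did 20 of the 22 standard proteasome genes (median 0.22 on ES replicate 1 and -0.00 on ES replicate 2). PSMC6 had the widest gap, 0.35 on replicate 1 and -0.12 on replicate 2, and was not called (-0.35 ± 0.16, adjusted p = 0.0903). On the IVDS3 arrays the same 22 genes had medians of -0.13 and -0.15. Without ES replicate 2 the count of falls was 11, and without ES replicate 1 it was 5.

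The remaining standard proteasome genes were not called at stage 3 on the mean of their probe sets. PSMA1, PSMA2 and PSMA3 lay between -0.09 and -0.08, PSMB2 at -0.17 and PSMB1 at 0.23, and PSMD8, PSMD9 and PSMD13 between -0.01 and 0.08. PSMC2, PSMC5, PSMD2 and PSMD6 lay between -0.22 and -0.15. Of all 22 standard proteasome genes, called or not, 19 had a log2 fold change below 0 and 3 above. The median over all genes was also below 0 (-0.13), and the share of all genes below 0 is not given here. The PSMA2 mean joined 2 probe sets called lower (-0.54 and -0.61) with 3 that were not called, at 0.20 to 0.32. In the 3 stage 2 groups, limma called 0 of the 22 standard proteasome genes against ES cells, where the shares of all genes called higher and lower were 13.7% and 16.5% in IVDS2-C, 6.31% and 4.67% in IVDS2-P, and 6.5% and 6.23% in IVDS2. At an unadjusted p under 0.05 the counts were 4 of 22 in IVDS2-C (41.9% of all genes), 1 in IVDS2-P (28.0%) and 0 in IVDS2 (26.9%).

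The activators that cap the 20S core in place of the 19S cap were measured for PSME2 and PSME3. PSME2 is part of the PA28 complex that pairs with PSME1 and is associated with antigen processing, and it read 0.20 and 0.31 in IVDS3, against 0.11 and 0.03 in ES cells (0.18 ± 0.11, adjusted p = 0.181). Against IVDS2, at -0.04 and -0.12, it rose by 0.33 ± 0.11 (adjusted p = 0.0335). The call was lost without either IVDS2, either IVDS2-C or either IVDS3 replicate (adjusted p from 0.0509 to 0.169). PSME3, the nuclear PA28 gamma, read -0.18 and -0.21 in IVDS3 and 0.26 and 0.11 in ES cells, a fall (-0.38 ± 0.11, adjusted p = 0.0167) that was lost without ES replicate 1 (adjusted p = 0.0571), IVDS3 replicate 1 (0.0619) or IVDS3 replicate 2 (0.0816). PSMC3IP, which shares the symbol prefix, is a recombination factor and no proteasome subunit. Its rise (0.34 ± 0.11, adjusted p = 0.0251) averaged 6 probe sets that were called higher and 2 called lower, from -1.41 to 1.00, and turned to -1.41 on its most variable probe set.

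All 4 peptide loading genes rose in IVDS3 over ES cells. TAP1 read 2.58 and 2.64 in IVDS3, against -0.90 and 0.03 in ES cells, so that its ES arrays differed by 0.92. The stage 2 arrays of TAP1 read -0.35 and -0.93 (IVDS2), 0.06 and 1.05 (IVDS2-C), and -0.03 and -0.22 (IVDS2-P), all below the IVDS3 arrays. The rise was 3.04 ± 0.36, or 8.24-fold (adjusted p = 0.000146). Its partner TAP2 read 0.76 and 0.93 in IVDS3, against -0.13 and 0.11 in ES cells, and rose 1.81-fold (0.85 ± 0.17, adjusted p = 0.00254). The mean for TAP2 joined 1 probe set at 1.59, called, and 1 at 0.12, not called, so the size of its change depends on which is read.

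B2M, the light chain shared by all class I molecules, read 2.67 and 2.60 in IVDS3, against 0.27 and 0.03 in ES cells. It was low in IVDS2, at -0.99 and -0.83, and stood at -0.10 and 1.15 in IVDS2-C and at -0.03 and -0.19 in IVDS2-P. The rise at stage 3 was 5.59-fold over ES cells (2.48 ± 0.32, adjusted p = 0.000223) and 11.7-fold over IVDS2 (3.55 ± 0.32, adjusted p = 5.06e-05). The dip in IVDS2 was not called (-1.06 ± 0.32, adjusted p = 0.0624), although its arrays lay below all others. It was called without IVDS2-C replicate 1 or 2 (adjusted p = 0.00164 each) and with only the ES and IVDS2 arrays in the fit (adjusted p = 0.0118). TAPBP read 1.11 and 1.19 in IVDS3 and -0.27 and -0.14 in ES cells, a rise of 2.57-fold (1.36 ± 0.16, adjusted p = 0.00016). Its 3 probe sets were all called higher, at 2.63, 0.83 and 0.62.

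Among the 6 MHC class I genes, 5 rose in IVDS3. MAMU-E, the counterpart of human HLA-E, whose product is a ligand of receptors of natural killer cells, read 3.43 and 3.17 in IVDS3, against -0.18 and 0.46 in ES cells. It rose 8.98-fold (3.17 ± 0.35, adjusted p = 9.8e-05), and its 3 probe sets ran from 2.94 to 3.52. The classical gene MAMU-A read 2.28 and 2.20 in IVDS3, against -0.10 and -0.29 in ES cells, and rose 5.40-fold (2.43 ± 0.19, adjusted p = 1.62e-05). MAMU-AG, a placental class I gene of the macaque, read 2.04 and 1.90 in IVDS3 and -0.10 and -0.16 in ES cells (2.10 ± 0.18, 4.29-fold, adjusted p = 2.2e-05). For these 3 genes the highest array outside IVDS3 was IVDS2-C replicate 2, at 1.27, 0.84 and 0.57.

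MAMU-I rose by 1.11 ± 0.15 (adjusted p = 0.000264) and MAMU-B by 0.66 ± 0.13 (adjusted p = 0.00271), and both joined probe sets that disagreed. Of the MAMU-I probe sets, 1 was called at 2.60 and the others, at 0.43 and 0.30, were not. Those of MAMU-B were called in opposite directions, at 2.02 and -0.70. MAMU-F, the counterpart of HLA-F, was the class I gene that was not called. It read 0.24 and 0.13 in IVDS3 and -0.06 and 0.27 in ES cells (0.08 ± 0.14, adjusted p = 0.655), although 1 of its 3 probe sets was called at 0.47. Macaque class I genes are near-identical copies, so a probe set can read several of them and the split between these symbols is uncertain. A further 8 probe sets annotated to several class I genes at once ran from 0.02 to 3.15, with 6 of them called higher and 0 lower.

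**Figure D4:**
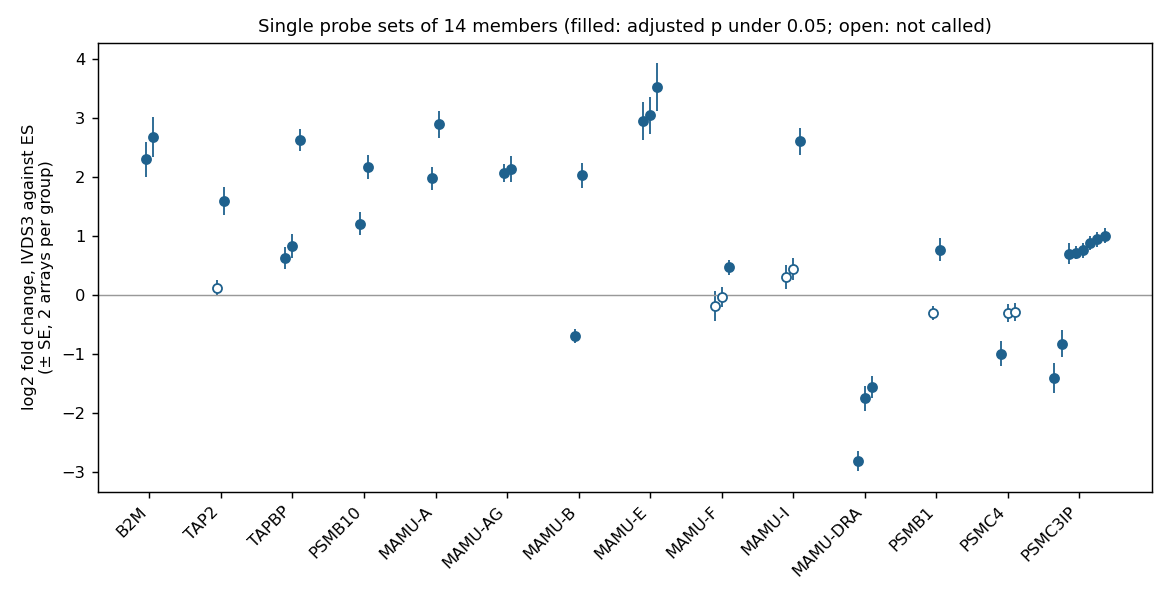
Log2 fold change in IVDS3 against ES cells (y axis, bars ± SE, 2 arrays per group) of each probe set of 14 genes (x axis). Filled points are called at adjusted p under 0.05 over all probe sets. The MAMU-B probe sets lie at 2.02 and -0.70, those of PSMC3IP run from -1.41 to 1.00, and those of MAMU-E from 2.94 to 3.52.

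Read by single probe sets, 28 of the 96 were called higher and 22 lower in IVDS3, where 17.9% and 19.9% of all 44210 probe sets were. Of the 31 genes with more than 1 probe set, 2 (MAMU-B and PSMC3IP) had probe sets called in both directions. The structural subunit PSMB1 had 1 probe set called at 0.77 and 1 at -0.31 that was not. PSMC4 had 1 called at -0.99 beside a pair near -0.30 that were not called. The 3 probe sets that PSMD4, the ubiquitin receptor of the 19S cap, shares with PIP5K1A ran from -0.40 to -0.06, with 1 called lower. A probe set that PSMB10 shares with BEX4 was called lower (-0.58), unlike the 2 of PSMB10 alone.

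MHC class II genes did not rise with class I. MAMU-DRA, the alpha chain of the DR molecule, read -0.02 and -0.41 in IVDS3, against 1.86 and 1.79 in ES cells, a fall of 4.13-fold (-2.04 ± 0.17, adjusted p = 2.4e-05). Its ES arrays were higher than those of every other group. The same gene read 0.10 and -0.27 in IVDS2, -0.17 and -0.42 in IVDS2-C, and 0.27 and 0.45 in IVDS2-P. It was lower than in ES cells in each of them: by -1.91 ± 0.17 in IVDS2 (adjusted p = 0.000383), -2.12 ± 0.17 in IVDS2-C (adjusted p = 9.9e-05) and -1.46 ± 0.17 in IVDS2-P (adjusted p = 0.00215). Its 3 probe sets were all called lower at stage 3, at -1.57, -1.76 and -2.81.

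The other class II falls at stage 3 were smaller. MAMU-DMA, part of the chaperone that loads class II peptides, read -0.26 and -0.27 in IVDS3 and 0.17 and 0.55 in ES cells (-0.63 ± 0.13, adjusted p = 0.00369). MAMU-DPA changed by -0.41 ± 0.10 (adjusted p = 0.00869) and MAMU-DQB1 by -0.38 ± 0.12 (adjusted p = 0.0302). The MAMU-DPA call was lost without IVDS3 replicate 1 (adjusted p = 0.053). That of MAMU-DQB1 was lost without ES replicate 2 (adjusted p = 0.0899), without IVDS3 replicate 2 (-0.22, adjusted p = 0.225) and with each array centred (adjusted p = 0.0532). MAMU-DOA (-0.20), MAMU-DQA1 (-0.19) and MAMU-DOB (0.04) were not called, with adjusted p from 0.244 to 0.775. Between stages, IVDS3 against IVDS2, limma called 0 of the 7 class II genes, where 17.6% of all genes were called higher and 22.2% lower. At an unadjusted p under 0.05, 2 of the 7 differed, where 48.1% of all genes did.

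**Figure D5:**
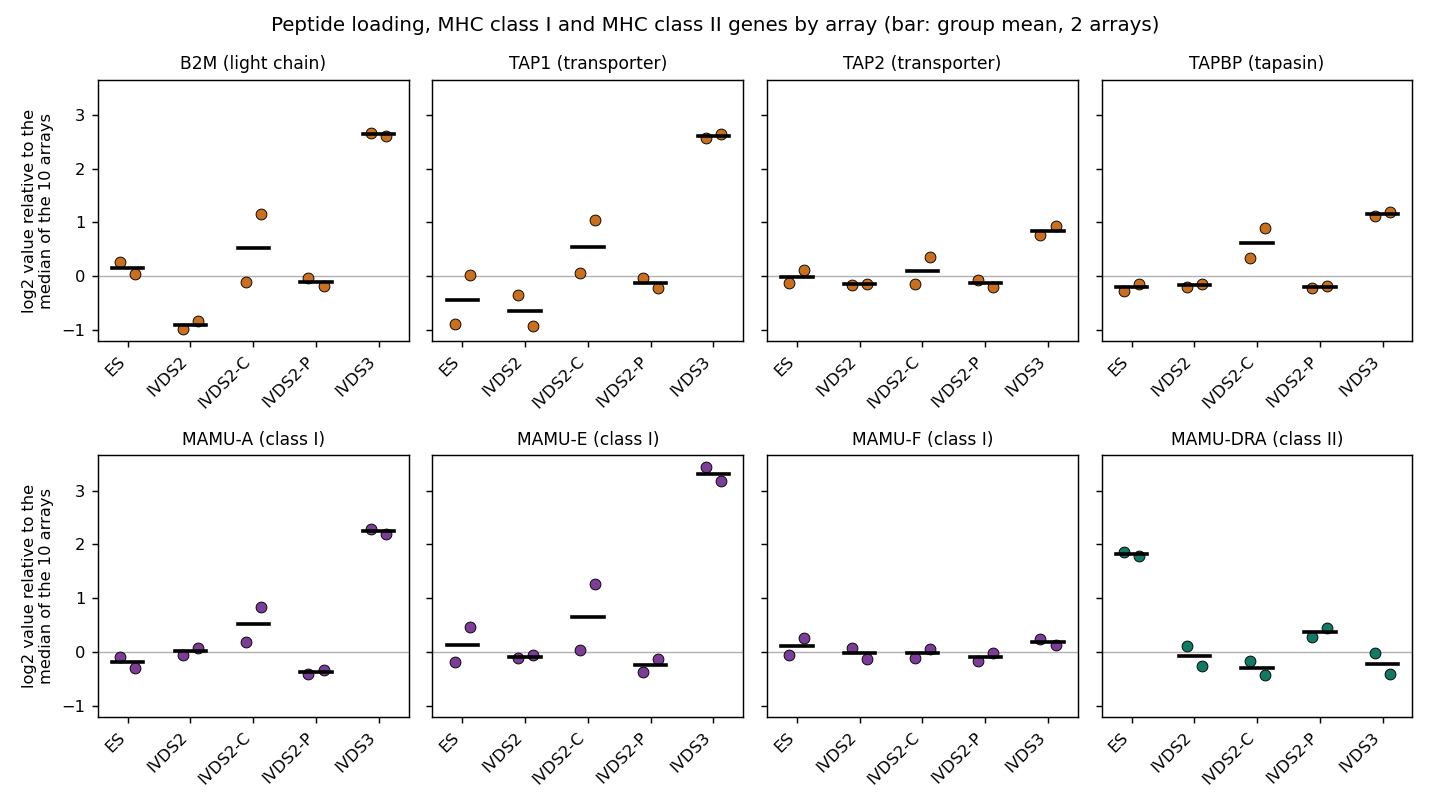
Log2 value relative to the 10-array median (y axis, same scale in each panel) of 4 peptide loading genes (orange), 3 MHC class I genes (purple) and MAMU-DRA (green) in the 5 groups (x axis). Points are arrays and bars are means of 2 arrays. B2M, TAP1, MAMU-A and MAMU-E average 2.64, 2.61, 2.24 and 3.30 in IVDS3, IVDS2-C replicate 2 lies above replicate 1 in the loading and class I panels, and MAMU-DRA averages 1.83 in ES cells.

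At stage 2 fewer of the 45 genes were called. In IVDS2-C against ES cells 2 rose and 3 fell, where 13.7% of all genes rose and 16.5% fell. The rises were TAPBP (0.82 ± 0.16, adjusted p = 0.00621), at 0.34 and 0.89 in IVDS2-C against -0.27 and -0.14 in ES cells, and MAMU-A (0.71 ± 0.19, adjusted p = 0.022), at 0.19 and 0.84 against -0.10 and -0.29. The falls were the class II genes MAMU-DRA, MAMU-DMA (-0.54 ± 0.13, adjusted p = 0.0143) and MAMU-DPA (-0.35 ± 0.10, adjusted p = 0.0294). In IVDS2-P against ES cells limma called 0 genes higher and 3 lower, where 6.31% of all genes rose and 4.67% fell. These 3 were MAMU-DRA, PSMB10 (-0.73 ± 0.20, adjusted p = 0.0468) and MAMU-DPA (-0.39 ± 0.10, adjusted p = 0.0444). In IVDS2 against ES cells it called 0 higher and 2 lower, MAMU-DRA and PSMB10 (-0.81 ± 0.20, adjusted p = 0.0277), where 6.5% rose and 6.23% fell. At an unadjusted p under 0.05, 7 (IVDS2-P) and 4 (IVDS2) of the 45 genes differed in either direction, where 28.0% and 26.9% of all genes did. All these comparisons share the ES arrays.

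Several of the stage 2 calls rested on single arrays. PSMB10 in IVDS2-P was lost when any array of the ES, IVDS2, IVDS2-P or IVDS3 groups was left out, with adjusted p from 0.0534 to 0.24. In IVDS2 it was lost without ES replicate 2 (adjusted p = 0.123), IVDS2 replicate 1 (0.069) or IVDS2 replicate 2 (0.159). MAMU-DPA in IVDS2-P was lost whichever array was left out, with adjusted p from 0.0633 to 0.263. In IVDS2-C, MAMU-A was lost without ES replicate 2 (adjusted p = 0.102) and MAMU-DMA without IVDS2-C replicate 2 (0.0837). MAMU-DPA was lost there without ES replicate 1 (adjusted p = 0.0656), IVDS2-C replicate 1 (0.102) or IVDS2-C replicate 2 (0.127).

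The colony centre was compared with its periphery directly. In IVDS2-C against IVDS2-P 3 of the 45 genes rose and 1 fell, where 5.64% of all genes rose and 3.95% fell. MAMU-A read 0.19 and 0.84 in the centre, against -0.42 and -0.35 in the periphery (0.90 ± 0.19, adjusted p = 0.0222). MAMU-AG read 0.15 and 0.57 in the centre and -0.65 and -0.42 in the periphery (0.89 ± 0.18, adjusted p = 0.0162). TAPBP, at 0.34 and 0.89 in the centre and -0.21 and -0.19 in the periphery, rose by 0.82 ± 0.16 (adjusted p = 0.0184). MAMU-DRA was the gene that fell (-0.66 ± 0.17, adjusted p = 0.0473). For each of the 4 genes the 2 groups did not overlap, as was so for 61.0% of all genes. None of the 28 genes with a proteasome symbol was called by limma, and 3 had an unadjusted p under 0.05, where 26.0% of all genes did.

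These centre values depended on which IVDS2-C array was read. All 12 immunoproteasome, loading and class I genes read higher on IVDS2-C replicate 2 than on replicate 1, by a median of 0.60, with medians of 0.70 on replicate 2 and -0.03 on replicate 1. The same array stood apart on some lists of cell type markers. The 7 measured markers of undifferentiated cells averaged -1.52 on IVDS2-C replicate 2 and -0.36 on replicate 1 (POU5F1 -3.38 and -0.50). The 7 squamous markers averaged 1.11 on replicate 2 and 0.52 on replicate 1. In the same order, the 2 arrays were closer on fibroblast (0.49 and 0.44) and hepatocyte markers (-0.03 and 0.03). Leukocyte markers averaged 0.33 and 0.11, and endothelial markers -0.27 and -0.14. The part of these markers in the result was not tested. In the other groups the median of replicate 1 minus replicate 2 over the 12 genes was -0.18 (ES), -0.03 (IVDS2), -0.04 (IVDS2-P) and 0.05 (IVDS3). In IVDS2-C that median was 0.07 over the 22 standard proteasome genes, and it is not given here over all genes. Without IVDS2-C replicate 2 the calls of MAMU-A (0.57, adjusted p = 0.113), MAMU-AG (0.68, adjusted p = 0.129), TAPBP (0.54, adjusted p = 0.0939) and MAMU-DRA (-0.53, adjusted p = 0.334) were lost. Against ES cells the MAMU-A value was then 0.39 (adjusted p = 0.133).

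Without IVDS2-C replicate 1, 7 of the 45 genes rose against ES cells and 7 against the periphery, where 11.3% and 6.22% of all genes rose in the same fits. Among those gained against ES cells were B2M (1.00, adjusted p = 0.0031), PSMB8 (0.90, adjusted p = 0.00794), MAMU-E (1.13, adjusted p = 0.0134), TAP1 (1.48, adjusted p = 0.0176) and MAMU-AG (0.70, adjusted p = 0.0287). TAP1 was also called without ES replicate 2 (1.45, adjusted p = 0.0309). Gained against the periphery were B2M (1.26), PSMB8 (1.21), MAMU-E (1.52) and PSMB10 (0.87), with adjusted p from 0.00201 to 0.0104. The periphery arrays decided calls as well: without IVDS2-P replicate 1, MAMU-A, MAMU-AG, TAPBP and MAMU-DRA were all lost (adjusted p = 0.124, 0.119, 0.108 and 0.134), and without IVDS2-P replicate 2, MAMU-A, TAPBP and MAMU-DRA (adjusted p = 0.0872, 0.0831 and 0.202). MAMU-DRA was also lost without any 1 of the ES or IVDS3 arrays (adjusted p = 0.0548 or 0.0519).

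From stage 2 to stage 3, in IVDS3 against IVDS2, 17.6% of all genes rose. Of the 12 immunoproteasome, loading and class I genes 11 rose and, outside these, PSME2. The largest of these were PSMB8 (3.70 ± 0.27, 13.0-fold, adjusted p = 1.79e-05), B2M (given above), MAMU-E (3.39 ± 0.35, 10.5-fold, adjusted p = 0.000111) and TAP1 (3.25 ± 0.36, 9.51-fold, adjusted p = 0.000167). MAMU-F was again not called (0.21). This comparison shares its IVDS3 arrays with the one against ES cells and is no independent measurement of them.

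Several of these genes are neighbours in the genome. In the order of protein-coding genes in the RefSeq annotation of assembly T2T-MMU8v2.0, MAMU-DMB, PSMB9, TAP1, PSMB8, TAP2 and MAMU-DOB follow each other, inside the class II region. Within that run TAP1, PSMB8 and TAP2 rose at stage 3, and MAMU-DOB was not called on the mean of its probe sets (0.04). Of its 3 probe sets, 1 was called higher (0.40, adjusted p = 0.0367), and read by its most variable probe set the gene was called (adjusted p = 0.0309). PSMB10 and B2M lie on other chromosomes and rose as well. PSMB5 lies next to PSMB11. Of the measured genes, 16 lie on the chromosome of TAP1 and 27 on others, and 2 were not in the table.

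Other genes of the pathway were read from lists chosen with earlier results of these data known. Their counts stand beside the 21.1% of all genes called higher and 28.6% called lower in IVDS3 against ES cells. Of 14 measured assembly factors and cofactors of the proteasome, 2 rose and 6 fell in IVDS3 against ES cells (median -0.35). NFE2L1, the transcription factor of the proteasome recovery response, rose (0.73, adjusted p = 0.000395), as did the inhibitor PSMF1 (0.52, adjusted p = 0.0192). Falls were seen in PAAF1 (-0.85), the ubiquitin receptor ADRM1 (-0.56), the core chaperone PSMG2 (-0.53) and the deubiquitinase UCHL5 (-0.53), with adjusted p of at most 0.00839. In the ubiquitin list, 1 of 4 rose (UBQLN2, 0.57) and 1 fell (UBA1, the main ubiquitin activating enzyme, -0.49).

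Peptide trimming and loading genes outside the chosen symbols had 4 rises and 1 fall among 7, where 21.1% of all genes rose and 28.6% fell. The aminopeptidases LNPEP (2.01), ERAP1 (0.99) and ERAP2 (0.49) and the tapasin relative TAPBPL (1.98) rose, and the cytosolic peptidase TPP2 fell (-1.19). In the class II pathway list, 4 of 6 rose and 2 fell, beside the same shares of all genes. The endosomal proteases CTSL (2.20), CTSS (2.02) and LGMN (0.58) and the thiol reductase IFI30 (1.56) rose. CD74, the invariant chain of class II (-0.36, adjusted p = 0.0372), and CIITA, the class II transactivator (-0.36, adjusted p = 0.0295), fell.

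Regulators of MHC and immunoproteasome genes had 7 rises and 5 falls among 14 measured, where 21.1% of all genes rose and 28.6% fell. NLRC5, the transactivator of class I genes, read 1.82 and 1.44 in IVDS3, against 0.01 and 0.16 in ES cells (1.54, adjusted p = 0.000165). The interferon regulatory factor IRF1 read 1.03 and 1.22 in IVDS3, against -0.46 and -0.50 in ES cells (1.60, adjusted p = 0.000823). NFKB1 (1.66) and IRF2 (1.02) rose too. RFXAP (-1.37), RFXANK (-0.64) and RFX5 (-0.47), the subunits of the RFX factor that binds MHC promoters, all fell. Between centre and periphery 3 of the 14, IRF1 (1.29), IRF8 (1.01) and NFKB1 (0.69), rose and 0 fell, where 5.64% of all genes rose and 3.95% fell. IRF1 read 0.59 on IVDS2-C replicate 1 and 1.56 on replicate 2. Of 9 measured relatives of class I, FCGRT (1.66) and HFE (1.58) rose and MICB (-0.98) fell.

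Some lists of cell type markers also changed at stage 3 and others were mixed, and their part in the results was not tested. All 7 measured markers of undifferentiated cells fell in IVDS3 against ES cells, and all 7 squamous epithelium markers rose, with array means of 3.73 to 3.95 in IVDS3, against -0.83 to -0.75 in ES cells. Over all genes, 28.6% fell and 21.1% rose. Of 8 fibroblast markers, which the feeders or hESdF could supply, 5 rose (among them LUM at 5.48 and DCN at 4.57) and 2 fell (THY1 and COL1A1). Their array means were 1.65 to 1.83 in IVDS3 and -0.09 to -0.03 in ES cells. Of 7 leukocyte markers 3 rose (LYZ 4.98, CD68 0.83 and CSF1R 0.83), with array means of 0.82 to 0.84 in IVDS3 and -0.14 to 0.04 in ES cells. The median log2 fold change of the list was 0.02, and its mean was carried by LYZ, at 4.32 and 4.46 in IVDS3, against -0.69 and -0.50 in ES cells. The leukocyte markers PTPRC (-0.01, adjusted p = 0.965) and CD14 (0.02, adjusted p = 0.892) were not called. No level of 0 can be read from centred values, so whether a marker is absent cannot be said.

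Further marker lists were read in the same way. Of 7 hepatocyte markers, CYP3A4 rose (3.76) and 3 fell in IVDS3 against ES cells (AFP -0.64, APOA1 -1.84 and APOB -0.48). Of 5 endothelial markers 0 rose and 3 fell. In that comparison 21.1% of all genes rose and 28.6% fell. Between centre and periphery, 6 of the 7 markers of undifferentiated cells fell. In the same comparison, 4 of the 7 squamous markers, 3 of the 8 fibroblast markers and 2 of the 7 leukocyte markers rose. Among the fibroblast markers 1 fell. The all-gene shares there were 5.64% and 3.95%. In replicate order, the squamous markers had means of 0.52 and 1.11 on the IVDS2-C arrays, against -0.70 and -0.72 on the IVDS2-P arrays.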

How the data were processed

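RNA of 10 arrays (5 groups of 2, grouped by title) was measured. The deposited table holds log2 values made with RMA, per the submitters' processing notes. No version is given, the log base is inferred from the values, and each probe set was centred on its median over the arrays (largest remaining median 5e-07), so no background or detection level can be read. Of 44294 probe sets, 84 controls were left out. Of the 44210 tested, 22802 had 1 gene symbol, 316 several and 21092 none in the platform annotation. Of the 22802, 22507 matched a gene of the RefSeq table by gene identifier. Single-gene probe sets were averaged into 13191 genes.

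One model with a term per group was fitted with limma 3.58.1 in R 4.3.3 (empirical Bayes, 5 residual degrees of freedom, prior 3.94, prior SD 0.142), for 6 comparisons. The differences PSMB8 minus PSMB5 and PSMB10 minus PSMB7 were appended as 2 rows (13193 rows), and p-values were adjusted within each comparison. The fit was tested on simulated data. The planned difference PSMB9 minus PSMB6 was not run.

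Members and lists were chosen with earlier results of these data known. Named with values were the catalytic subunits, activators, loading genes and MAMU genes, the 3 largest called, non-overlapping changes of each other class, and up to 4 called genes of each further list; other genes were chosen after their values were seen. Alternatives were array centring, a fit of 4 arrays, a replicate block, each array left out, the most variable probe set and, for the differences, unmoderated variances. Same-numbered arrays did not deviate together in every pair of groups (correlations over genes from -0.21 to 0.28).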

Additional observations from a re-analysis of the deposited data

Results flagged for a closer look

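Results are given here where the effect against ES cells differed between groups by a test of the difference itself (limma, adjusted over all genes). Between centre and periphery of stage 2 colonies, the difference was 0.90 for MAMU-A (adjusted p = 0.0222), 0.89 for MAMU-AG (0.0162), 0.82 for TAPBP (0.0184) and -0.66 for MAMU-DRA (0.0473). MAMU-A, MAMU-AG and TAPBP were higher in both centre arrays than in either periphery array, and MAMU-DRA lower. The 2 groups did not overlap for 61.0% of all genes. All 4 calls were lost without IVDS2-C replicate 2 (differences of 0.57, 0.68, 0.54 and -0.53). They were also lost without IVDS2-P replicate 1 (0.86, 0.78, 0.80 and -0.75).

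Between stages 3 and 2, the genes with a higher effect at stage 3 were PSMB8 (3.70), B2M (3.55), MAMU-E (3.39), TAP1 (3.25), PSMB10 (2.50), MAMU-A (2.23), MAMU-AG (2.11), TAPBP (1.32), MAMU-I (1.31), TAP2 (0.99), MAMU-B (0.88) and PSME2 (0.33). Those with a lower effect were PSMB7 (-0.52), PSMC4 (-0.51) and PSMD1 (-0.50). The difference was 4.00 for PSMB8 minus PSMB5 and 3.01 for PSMB10 minus PSMB7. Adjusted p by limma ran from 1.03e-05 for PSMB10 minus PSMB7 to 0.0335 for PSME2.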

How the results depend on the processing

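Of 186 results on named genes, 55 were called, and 33 of these kept their call in every alternative run, while 22 lost it in some. Another 22 gained a call in some, and 2 reversed: PSMC3IP read -1.41 (IVDS3 against ES) and -1.56 (IVDS3 against IVDS2) on its most variable probe set. In IVDS3 against ES, 17 of 26 calls were kept throughout. The main limit is 2 arrays per group, with no absolute signal to set a detection limit. Causes of the changes below were not tested. The shares of all genes called moved with the setting too, also with 1 array left out. In IVDS3 against ES, 28.6% of all genes fell, against 24.5% with each array centred and 22.7% with only the 4 arrays. With only the 4 arrays, 8.56% rose and 7.87% fell in IVDS2-C against ES, where 13.7% and 16.5% did in the main fit. For centre against periphery these were 3.34% and 1.32%, against 5.64% and 3.95%.

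The count of members that fell in IVDS3 against ES was 14, and 9 with each array centred, 8 with only the 4 arrays, and 7 to 15 with 1 array left out. That of standard proteasome genes that fell (9, an alternative count added after seeing the data) was 5, 5 and 4 to 11. For IVDS2-C against ES, rises (2) were 0 with 4 arrays and 1 to 7 with 1 array left out, and falls (3) were 1 with 4 arrays, 5 on the most variable probe sets and 1 to 6 with 1 array left out. For IVDS2-P against ES, falls (3) were 1 with centred arrays, 1 on the most variable probe sets and 1 to 2 with 1 array left out. For IVDS2 against ES, falls (2) were 1 on the most variable probe sets and 1 to 3 with 1 array left out. For centre against periphery, rises (3) were 0 with 4 arrays and 0 to 7 with 1 array left out, and the single fall was 0 with centred arrays, 0 with 4 arrays and 0 to 1 with 1 array left out. For IVDS3 against IVDS2, falls (3) were 2 to 5 with 1 array left out and 5 on the most variable probe sets.

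With 1 array left out, PSMB8 minus PSMB5 ranged from 0.10 to 1.28 in IVDS2-C against ES and from 0.31 to 1.50 in centre against periphery, and both were called without IVDS2-C replicate 1. PSMB10 minus PSMB7 ranged from -0.78 to -0.57 in IVDS2-P against ES, from -0.87 to -0.66 in IVDS2 against ES and from 0.33 to 1.01 in centre against periphery. In IVDS2 against ES its call was also lost on the most variable probe sets (-0.55, adjusted p = 0.135) and without moderation (-0.77, adjusted p = 0.131). In IVDS3 against ES both differences were called in each alternative, at 3.59 to 4.04 and 2.14 to 2.35 with 1 array left out.

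The replicate numbers share only a number. With the replicate block, falls in IVDS3 against IVDS2 were 5 rather than 3, PSMB8 minus PSMB5 was 3.81 and PSMB10 minus PSMB7 2.24 in IVDS3 against ES, and of the calls on named genes PSMD7 was lost (adjusted p = 0.0542) and PSMB5 and PSMB6 were gained between the stages. With centred arrays the all-gene median of IVDS3 against ES moved to -0.07, against -0.13. The planned PSMB9 minus PSMB6 was not run, as PSMB9 was not analysed here.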
